A study of Rattus norvegicus with 8 samples.

Results

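The 6 genes described here encode microtubule-associated proteins (MAPs): Map1a, Map1b, Map2, Map4, Map6 and Mapt. Their members were taken by gene symbol, as all sites of the table assigned to one of these symbols, which gave 333 of 73922 polyadenylation sites and 6 of 12239 genes. Those sites held 2.34% of all reads. Every site is a cluster of RNA 3′ ends, counted by whole transcriptome termini site sequencing (WTTS-seq), in which each read marks where a polyadenylated RNA ended or where the primer found a run of A bases.

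MAPs bind the wall of microtubules, the hollow tubulin polymers that hold axons and dendrites open and carry their transport. Map2 is best known from dendrites and cell bodies, and Mapt, which encodes tau, from axons. Map1a and Map1b encode large precursors that are cut into heavy and light chains, with Map1b prominent while axons grow and Map1a in mature neurons. Map4 is the MAP found in most cell types, and Map6 encodes the stable tubule only polypeptide (STOP), which protects microtubules from cold. Several of these genes are known to make alternative transcripts, so the place where their RNAs end was read site by site.

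Hypothalamus was taken from adult Long-Evans rats, all male. The labels put 4 rats in a control group on standard chow (0.51 kcal/g from fat) and 4 in a diet-induced obesity group with free access to a high fat diet (1.71 kcal/g from fat), and brains were collected after 36 days. The labels name no allele or agent besides the diets. The text of the linked paper describes another exposure, so the groups are those of the labels. The libraries were made from whole hypothalamus, and in such bulk tissue fewer cells of a type and less RNA per cell cannot be told apart.

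Library totals were between 1417531 and 1957726 reads. The number of sites without a read was 14788 in control library 1 and 10659 in obesity library 1, and between 4062 and 6622 in the 6 others. All 7 hypothalamic neuropeptide markers were measured, and 2 had a log2 fold change above 0. Another 2, Oxt and Avp, were lower at an unadjusted edgeR p under 0.05, each with an adjusted p of 0.922. Oxt averaged 62 ± 10 CPM (read counts scaled to a common library size) in control and 37.2 ± 10.6 in obesity, without overlap. Avp averaged 976.0 ± 175.4 and 719.9 ± 90.1 CPM (SD, n = 4), with overlapping groups. Neuron marker genes summed to 4143 to 7536 CPM in control and to 3982 to 6557 in obesity. Of these 7 genes 6 were measured, 2 of them with a log2 fold change above 0. Stmn2, also a neuron marker, was left out of this sum and is given below with the microtubule genes. Markers of oligodendrocytes, which also express tau and Map4, summed to 17194 to 22668 and 13333 to 21009.5 CPM, with all 8 measured and all 8 fold changes below 0. Astrocyte markers summed to 1886 to 2643 and 1479 to 2163 CPM (6 of 6 measured, 2 above 0). Microglia markers summed to 72.9 to 117.0 and 30.1 to 91 CPM (3 of 5 measured, 1 above 0). The choroid plexus marker Ttr and the pituitary markers Gh1, Lhb and Cga were at 0 in at least 1 library each. Ttr had 98 CPM in obesity library 4 and at most 1.52 in any other library. Gh1 had 70.7 and Lhb 47.1 CPM in obesity library 2, against at most 0.813 and 6.5 in any other. Cga was highest in control library 1, at 50.3 CPM. The part of all these markers in the results below was not tested.

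Map1b and Map1a were among the most abundant genes of the hypothalamus by 3′ end reads. A gene sum adds a gene's sites on its main strand, the one with most of its reads, and its CPM is scaled to the total of all gene sums. It was not divided by gene length, and since priming inside an RNA was not removed, a long RNA could give several reads. Map1b ranked 5 and Map1a 6 of 12239 genes, followed by Map2 at 30, Mapt at 96, Map4 at 516 and Map6 at 1900.

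Map1b had gene sums of 18912, 12806, 11301 and 12555 CPM in control (libraries 1 to 4) and 16093, 12703, 11069 and 11776 CPM in obesity (libraries 1 to 4). Library 1 was the highest of each group, and the groups overlapped, although every obesity library was below the control library with the same number. Map1a had 12311, 12361, 8410.4 and 10315 CPM in control and 10947, 12804, 8519 and 11400.5 CPM in obesity. Both groups covered nearly the same range, with library 3 the lowest of each. Map1b was above Map1a in 7 of 8 libraries, but the ranges of these neighbours overlapped.

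Map2 had 1979, 2491, 2224 and 2139.5 CPM in control and 2068, 2472, 1849.8 and 1680.2 CPM in obesity. Mapt had 846.0, 1144, 1011 and 1341 CPM in control and 798.6, 1122, 864.3 and 1139.6 CPM in obesity. Mapt too was lower in obesity in 4 of 4 same-numbered pairs, with overlapping groups. Map4 had 218.1, 305.2, 397.4 and 359.6 CPM in control and 164.5, 285.1, 408.1 and 332.9 CPM in obesity, with library 1 lowest in each group. Map6, the least abundant, had 64.4, 95.7, 90.2 and 98.1 CPM in control and 86.4, 93.4, 106.0 and 125.9 CPM in obesity. From Map1a down to Map6 each gene was above the next in 8 of 8 libraries, with no overlap of their ranges.

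No gene sum differed between the groups beyond the spread of the libraries. The log2 fold changes, obesity over control, were 0.01 (SE 0.19) for Map1a, -0.11 (SE 0.20) for Map1b and -0.13 (SE 0.18) for Map2. They were -0.10 (SE 0.26) for Map4, 0.24 (SE 0.24) for Map6 and -0.15 (SE 0.20) for Mapt. The adjusted p-values were 0.962 to 0.998 (edgeR quasi-likelihood test, Benjamini-Hochberg over all genes), and 0 of 6 genes had an unadjusted p under 0.05. Over all genes 0% passed an adjusted p of 0.1 and 5.08% an unadjusted p of 0.05. DESeq2 also called 0 of the 6. With the library number as a block the edgeR adjusted p-values of the 6 were 0.727 to 0.988. In that fit 34 of all gene sums passed an adjusted p of 0.1.

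**Figure D1:**
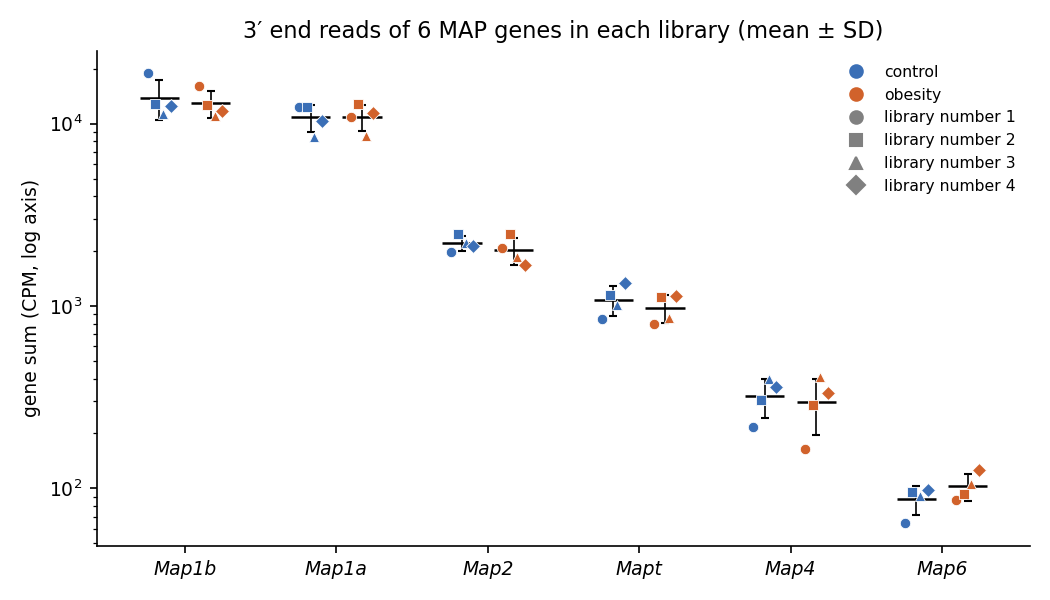
Gene sums of the 6 MAP genes in CPM on a log axis, with 1 point per library, marker shape for the library number and bars for the mean ± SD of 4 libraries. The genes fall from Map1b at 11069 to 18912 CPM to Map6 at 64.4 to 125.9 CPM, and control and obesity overlap in every gene.

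These genes were split over many more sites than most. The median gene had 2 sites, whereas Map1b had 96 on its own strand, Map2 81, Map1a 64, Mapt 46, Map4 20 and Map6 16. By number of sites Map1b ranked 32, Map2 44, Map1a 74, Mapt 125, Map4 451 and Map6 655 of 12239 genes. The sites of Map1a lay within 14.6 kb on the plus strand of chromosome 3 (113258091 to 113272693, Rnor_6.0), and those of Map1b within 91.0 kb on the minus strand of chromosome 2 (29675391 to 29766368). Map2 spanned 257.0 kb on the plus strand of chromosome 9 (73206181 to 73462972), and Mapt 82.1 kb on the plus strand of chromosome 10 (92304379 to 92386516). Map4 spanned 117.0 kb on the plus strand of chromosome 8 (118043223 to 118159943), and Map6 65.7 kb on the plus strand of chromosome 1 (164226409 to 164292096). No annotation of this build was used, so the sites were placed by their distance before the most 3′ site of the gene, and not as exonic, intronic or UTR sites.

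Except in Map4, nearly all reads fell at internal sites. A most 3′ site is the site of a gene farthest along its strand, and the other sites are called internal. The internal share of reads was 99.9% for Map1a, 99.3% for Map1b, 98% for Map2, 95.7% for Mapt, 94.5% for Map6 and 63.8% for Map4. The most 3′ site took a mean of 0.145% of Map1a reads over the 8 libraries, and 4 of the 7792 genes with several sites and reads in every library had a lower share. For Map1b it was 0.739%, with 93 genes lower, and for Map2 2.05%, with 361 lower. Mapt had 4.54%, with 880 lower, Map6 5.22%, with 1026 lower, and Map4 37.5%, with 5014 lower. The median over those 7792 genes was 24.9%, and over the 129 with at least 46 sites it was 0.906%. A low share was thus usual in genes with many sites. Map1b was near their median, Map1a below it, and Map2 and Mapt above it.

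The place of the internal reads differed from gene to gene. In Map1a 97.6% of reads ended 5 to 20 kb before the most 3′ site, and the most abundant site (113262854 to 113263059), 9691 bases before it, held 39.5% of the gene's reads. In Map1b 68.8% ended in the same range of distance, led by a site 12558 bases before the most 3′ site (29687722 to 29687999) with 21.5%. A further Map1b site (29679251 to 29679291), 3857 bases before the end, held 17.1%. In Map2 66.2% of reads ended more than 20 kb before the most 3′ site, with 22.4% at a single site (73399477 to 73399520) 63457 bases before it, while 25.8% ended within 1 kb of it.

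Mapt ended closer to its 3′ end, with 55.5% of reads at 1 to 5 kb and 31.1% at its most abundant site (92384503 to 92384529), 1998 bases before the most 3′ site. Map4 was the only 1 of the 6 genes whose most 3′ site (118159905 to 118159943) was also its most abundant, with 36.2% of reads. Map6 was the most evenly spread, since 9 of its 16 sites held at least 5% of the reads and its most abundant (164288825 to 164288835) held 13.2%.

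**Figure D2:**
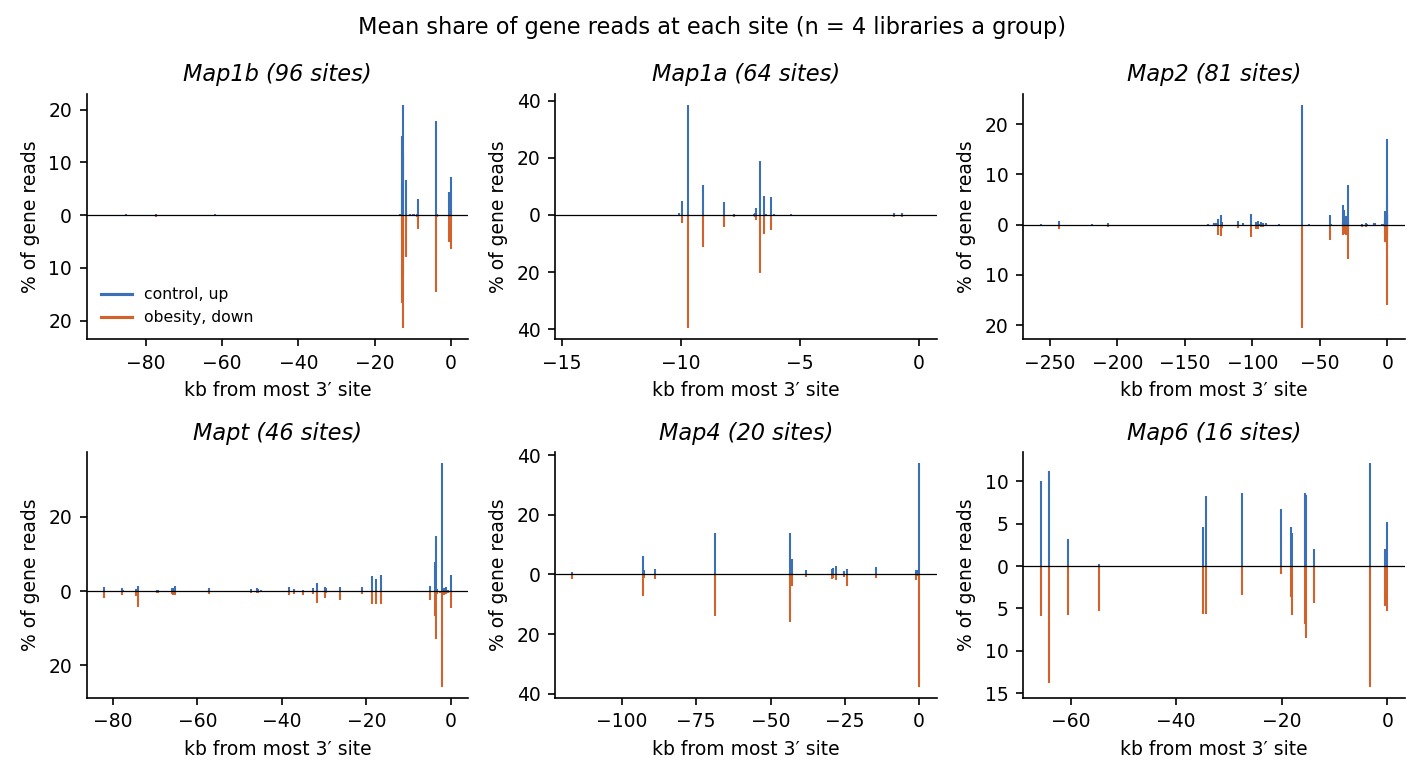
Share of gene reads at each site of the 6 genes, as the mean of 4 control libraries (up) and 4 obesity libraries (down), against the distance in kb from the most 3′ site. Map1a, Map1b and Map2 have their tallest bars 9691, 12558 and 63457 bases before the most 3′ site, and Map4 has its tallest at 0.

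The share at the most 3′ site asks whether RNA ends at that site became more or less frequent in obesity. It does not show a shift among the internal sites. Map1b had 0.427%, 1.11%, 1.31% and 1.07% of its reads there in control and 0.35%, 0.639%, 0.582% and 0.422% in obesity. Every obesity library was below the control library of the same number, but control library 1 lay among the obesity libraries. The means were 0.98% ± 0.383 and 0.498% ± 0.135 (SD, n = 4), with a 2-sided exact permutation p of 0.0857. Counted from the last site with at least 5% of the reads, which adds the abundant neighbour, the shares were 8.16% ± 4.28 and 7.01% ± 3.75 (SD, n = 4, exact permutation p = 0.657). Without control library 1 the p was 0.0286, the smallest that 3 against 4 libraries allow. Signs of the 4 same-numbered differences gave an exact p of 0.125, the smallest that 4 pairs allow.

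In the other 5 genes the most 3′ share did not differ beyond the spread. Map1a had 0.123% ± 0.039 and 0.166% ± 0.108 (exact permutation p = 0.629, n = 4), and Map2 had 2.07% ± 0.278 and 2.03% ± 0.93 (exact permutation p = 0.971). Map4 had 37.3% ± 7.92 and 37.6% ± 11 (exact permutation p = 1.0), and Map6 had 5.17% ± 3.8 and 5.27% ± 2.46 (exact permutation p = 0.971). Mapt had 4.45% ± 2.05 and 4.62% ± 2.32 (exact permutation p = 0.943). The design allows no p below 0.0286, 0 of 6 genes passed 0.05, and 3.05% of the 7792 genes did. By distance, 60.1% ± 4.97 of Mapt reads in control and 49.5% ± 8.08 in obesity ended 1 to 5 kb before the most 3′ site. More than 20 kb before it the Mapt shares were 21.5% ± 3.69 and 30.9% ± 5.9 (SD, n = 4). The groups overlapped in both ranges, which were picked after their values were seen and were not tested.

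At single sites 0 of 333 passed an adjusted p of 0.1 by edgeR, against 1 of 73922 over the table (0.00135%), while DESeq2 called 1 of them and 10 sites over the table. Counted at an unadjusted p under 0.05, 21 MAP sites (6.31%) had more reads in obesity and 5 (1.5%) fewer, against 1.72% and 1.41% of all sites. All 4 obesity libraries were above all 4 control libraries at 16 sites (4.8%, against 1.43% of all sites) and below at 6 (1.8%, against 1.69%). The median log2 fold change was 0.17 over the 333 sites and 0.05 over all sites. Sites of 1 gene share their RNA and lie next to each other, so they are not independent.

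Most of the higher sites were in Map1b and Map1a. Map1b had 11 higher and 2 lower sites at an unadjusted p under 0.05, and Map1a 7 higher and 1 lower. Map2 had 1 and 2, Map6 and Mapt had 1 and 0 each, and Map4 had 0 in both directions. The count depended on single libraries, with 12 higher sites without control library 2, 13 without obesity library 2 and 31 without control library 3, where 1.82%, 2.38% and 1.87% of all sites were higher. Without obesity library 2 there were 10 lower sites in place of 5, and the share of lower sites over the table was 3.14% in place of 1.41%. With the library number as a block there were 31 higher and 12 lower sites, against 2.79% and 3.31% of all sites.

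The 5 lower sites included some of the more abundant ones. All but the Map1b most 3′ site are named here after their values were seen, as are the single higher sites of Map2 and Mapt. A Map1a site (113262720 to 113262749) with 3.70% of the gene's reads had 811, 638, 663 and 622 reads in control and 349, 425, 605 and 376 in obesity. Every obesity library was below every control library in CPM, at 430.0 ± 52.6 and 252.2 ± 55.9 (SD, n = 4), and the log2 ratio was -0.77 (SE 0.27). A Map1b site (29688156 to 29688229) with 4.89% of reads averaged 696.5 ± 131.9 and 426.3 ± 129.8 CPM, with overlapping groups (-0.71, SE 0.29).

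In Map2 a site 32643 bases before the most 3′ one (73430317 to 73430369) had 111, 108, 85 and 165 reads in control and 22, 54, 50 and 105 in obesity, with no overlap in CPM (-1.14, SE 0.44). A smaller Map2 site (73431471 to 73431493) had 22, 21, 11 and 8 reads against 5, 7, 6 and 7 (-1.36, SE 0.60), and the single higher Map2 site (73432961 to 73432986) had 0, 4, 7 and 3 against 17, 13, 22 and 12 (1.95, SE 0.82). The higher Mapt site (92312329 to 92312340), 74174 bases before the end, had 20, 17, 28 and 17 reads against 63, 16, 93 and 70, and obesity library 2 was within the control range. The fifth lower site was the most 3′ site of Map1b, described below. The edgeR adjusted p of each was 1. Merged with their neighbours, the log2 ratios were -0.25 (SE 0.26) for the Map1b site at 29688156, -0.46 (SE 0.41) for the Map2 site at 73431471 and 0.18 (SE 0.51) for the one at 73432961. The Map1a site at 113262720, merged with its neighbour, had -0.76 (SE 0.26), still without overlap.

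**Figure D3:**
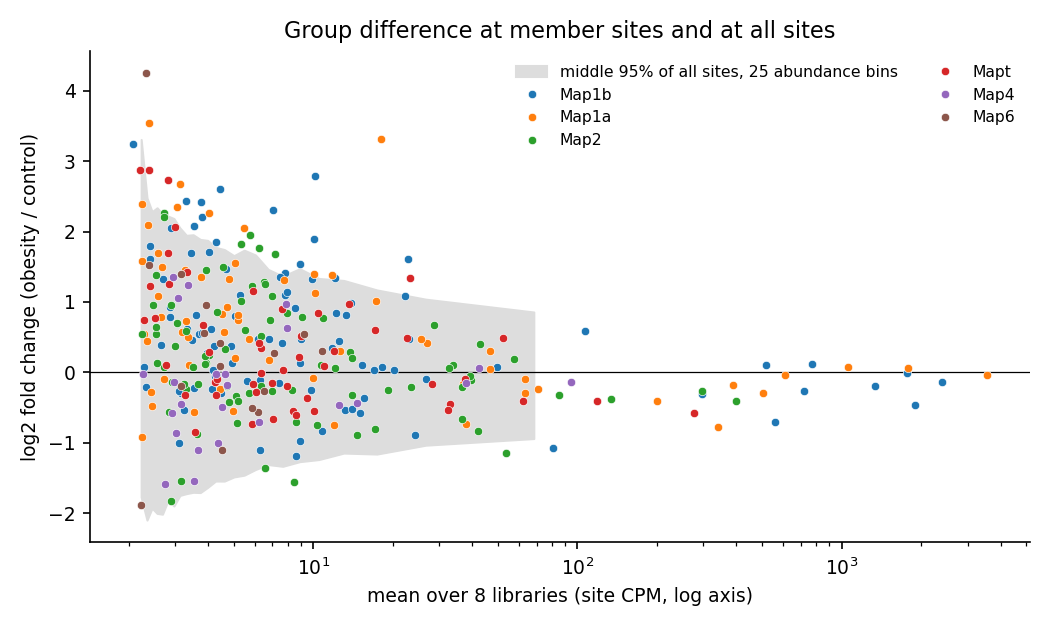
Log2 fold change (obesity over control) of the 333 MAP sites against their mean site CPM on a log axis, with 1 point per site and colour for the gene. The grey band covers the middle 95% of all 73922 sites in 25 bins of abundance. The sites with the largest positive values have far lower CPM than the most abundant MAP sites, and the 2 most abundant, of Map1a and Map1b, are at -0.04 and -0.14.

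A minor Map1a site had the smallest p of the 333. It lay on chromosome 3 (113263763 to 113263838), 8886 bases before the most 3′ site, and held 0.199% of the gene's reads. It had 6, 0, 8 and 6 reads in control and 108, 59, 20 and 35 in obesity. All obesity libraries were above all control libraries. In CPM scaled to the reads at all sites it averaged 3.30 ± 2.45 and 32.9 ± 22.8 (SD, n = 4), and the log2 ratio was 3.32 (SE 0.77). The adjusted p was 1 by edgeR, 0.117 with the block and 0.0656 by the DESeq2 Wald test.

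This site began 22 bases beyond a far more abundant one (113263489 to 113263741), which had 13785 reads. The log2 fold change of the neighbour was 0.07 (SE 0.64). With sites at most 50 bases apart merged, an alternative chosen after the data were seen, the log2 ratio of the joined site was 0.10 (SE 0.64, edgeR adjusted p 1.0). At the merged level 17 of 246 MAP sites were higher and 2 lower at an unadjusted p under 0.05 (6.91% and 0.813%), against 1.64% and 1.51% of all 70285 merged sites.

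In Map1b the most 3′ site (29675391 to 29675437) was lower, with 114, 213, 182 and 177 reads in control and 75, 100, 110 and 73 in obesity. In CPM this was 109.2 ± 30.9 and 52.1 ± 13.2 (SD, n = 4), and the log2 ratio was -1.07 (SE 0.34). The edgeR adjusted p was 1, and 0.26 with the block. On the CPM scale control library 1, at 64.2, was below obesity library 2, at 69.3. A site of 9478 reads lay 28 bases away, and merged with it the log2 ratio was -0.36 (SE 0.41).

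Several internal Map1b sites were instead higher. The site at 29679094 to 29679183, 3742 bases before the most 3′ site, had 27, 13, 14 and 18 reads in control and 112, 35, 44 and 49 in obesity, a log2 fold change of 1.61 (SE 0.47). The site at 29686746 to 29686817, 11350 bases before it, had 1, 2, 9 and 3 reads in control and 19, 41, 16 and 42 in obesity, with 2.79 (SE 0.74). The site at 29678578 to 29678624 had 5, 4, 2 and 4 reads in control and 42, 13, 20 and 7 in obesity, with 2.30 (SE 0.69). At these 3 sites the groups did not overlap in CPM. Their edgeR adjusted p was 1 each, with a low of 0.241 for the site at 29686746 with the block. Merging changed 2 of the 3. The first fell into a group of 7 sites (29678968 to 29679384) whose log2 ratio had the opposite sign, -0.46 (SE 0.38), and the second into a group of 4 with 1.47 (SE 0.48) and overlapping groups. The third, merged with 1 neighbour, kept 2.28 (SE 0.59).

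The higher sites named above had far fewer reads than the most abundant sites of their genes. Still, the 3 Map1b sites, with 312, 133 and 97 reads, were above the median MAP site, with 78. The most abundant Map1b site averaged 2509.7 ± 808.5 and 2276 ± 448.5 CPM (SD, n = 4), with a log2 ratio of -0.14 (SE 0.26). The most abundant Map1a site had 3609 ± 1154 and 3502 ± 584.6 CPM, with a log2 ratio of -0.04 (SE 0.26).

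The last site at an unadjusted p under 0.01 was in Map6 (164237414 to 164237439), 54658 bases before the most 3′ site. It had 0, 0, 1 and 0 reads in control and 8, 4, 13 and 7 in obesity. The groups did not overlap, and the log2 fold change of 4.25 (SE 1.27) rests on 1 control read and depends on the prior count of the fit. Its share of Map6 reads was 3.08%, and the nearest Map6 site was 5846 bases away. The edgeR adjusted p was 1 without the block and 0.516 with it.

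**Figure D4:**
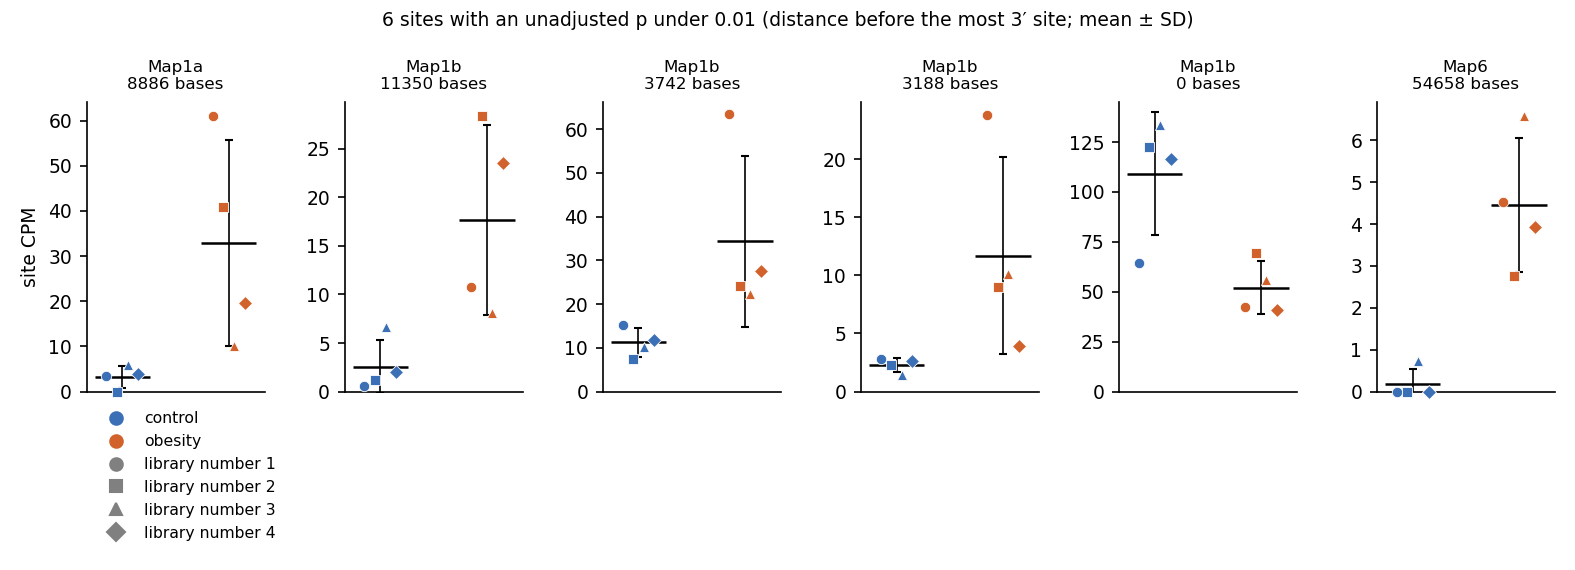
Site CPM of the 6 MAP sites with an unadjusted p under 0.01, with 1 point per library, shapes for the library number and bars for the mean ± SD of 4 libraries. The Map1b site at 0 bases is lower in obesity and the other 5 are higher, and the Map1a site has 3.30 ± 2.45 CPM in control and 32.9 ± 22.8 in obesity.

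In Map2, Mapt, Map4 and Map6 the most abundant and most 3′ sites did not differ beyond the spread. The most abundant Map2 site averaged 452.1 ± 61.6 and 343.3 ± 102.5 CPM (log2 fold change -0.40, SE 0.28), and the most abundant Mapt site had 331.4 ± 134.9 and 221.6 ± 134.9 CPM (-0.58, SE 0.44). For Mapt the share of gene reads at that site was lower in 4 of 4 same-numbered pairs, at 34.4% ± 7.08 and 25.8% ± 11.7 (SD, n = 4), with an exact permutation p of 0.257. The most 3′ sites of Map2 and Mapt had 39.4 ± 8.41 and 34.0 ± 17.8 CPM, and 38.7 ± 8.55 and 36.5 ± 20 CPM. The Map4 site that was both had 99.5 ± 20.9 and 90.2 ± 39.7 CPM. In Map6 the most abundant site had 9.55 ± 6.62 and 11.9 ± 7.57 CPM, and the most 3′ site 4.29 ± 3.14 and 4.56 ± 2.30 CPM.

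Site usage asks whether a site changed against the other sites of its gene. By edgeR's diffSpliceDGE 0 of the 6 MAP genes and 0% of the 7986 genes tested passed an adjusted p of 0.1. The unadjusted Simes p was 0.00162 for Map1a and 0.029 for Map1b, and 1.36% of all genes were under 0.05. The Map1a p came from the site at 113263763. With the block its own usage test had an edgeR adjusted p of 0.0234, and 4 of the 58574 sites tested passed 0.1. For the gene as a whole, the Simes p of Map1a with the block, 2.88e-05, gave an adjusted p of 0.115. A further 2 usage tests in Map1b had an unadjusted p under 0.01 at sites that did not pass it by level. The first (29686223 to 29686313) had 3, 2, 15 and 5 reads in control and 47, 32, 21 and 7 in obesity, and the other (29684847 to 29684873) 4, 3, 1 and 0 against 15, 13, 21 and 5. Merged into a group of 6 sites, the first had a log2 ratio of 0.69 (SE 0.41) with overlapping groups, against 1.90 alone. The other, merged with its neighbour, had 2.40 (SE 0.66) without overlap, against 2.60 alone.

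Minor sites, those with under 1% of a gene's reads, were then summed, a grouping made after their values were seen and given with no test. In Map1a the 56 minor sites held 6.67% ± 1.46 of the gene's reads in control libraries and 8.11% ± 0.946 in obesity libraries (SD, n = 4). In Map1b 87 minor sites held 7.11% ± 1.94 and 9.43% ± 1.58, in Map2 64 held 18.9% ± 1.94 and 24.5% ± 3.11, and in Mapt 28 held 13.7% ± 2.93 and 17.9% ± 1.88. The mean was higher in obesity in all 4 of these genes, and the groups overlapped or met in each. Among the 204 genes with 10 or more minor sites the mean was higher in 52.0%, and in 4.9% all obesity libraries were above all control libraries.

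MAP sites stood out in the same library number of both groups about as often as sites of the whole table. Both groups carry the numbers 1 to 4, and what a number shares is not stated in the labels. Both libraries of 1 number were above the other 6 at 46 of the 137 MAP sites with at least 100 reads (33.6%), close to the 29.2% of all such sites in the table. This pattern was chosen after the values were seen. The Map1a site at 113263489 had 834, 4172, 636 and 1191 reads in control and 867, 3653, 1123 and 1309 in obesity, so that both libraries numbered 2 stood above the rest. Another Map1a site, at 113265702, had 104 and 194 reads in the libraries numbered 4 and 3 to 26 in the others. A Map2 site (73460955 to 73461057) had 225 and 219 reads in those numbered 2 and 32 to 71 in the others.

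**Figure D5:**
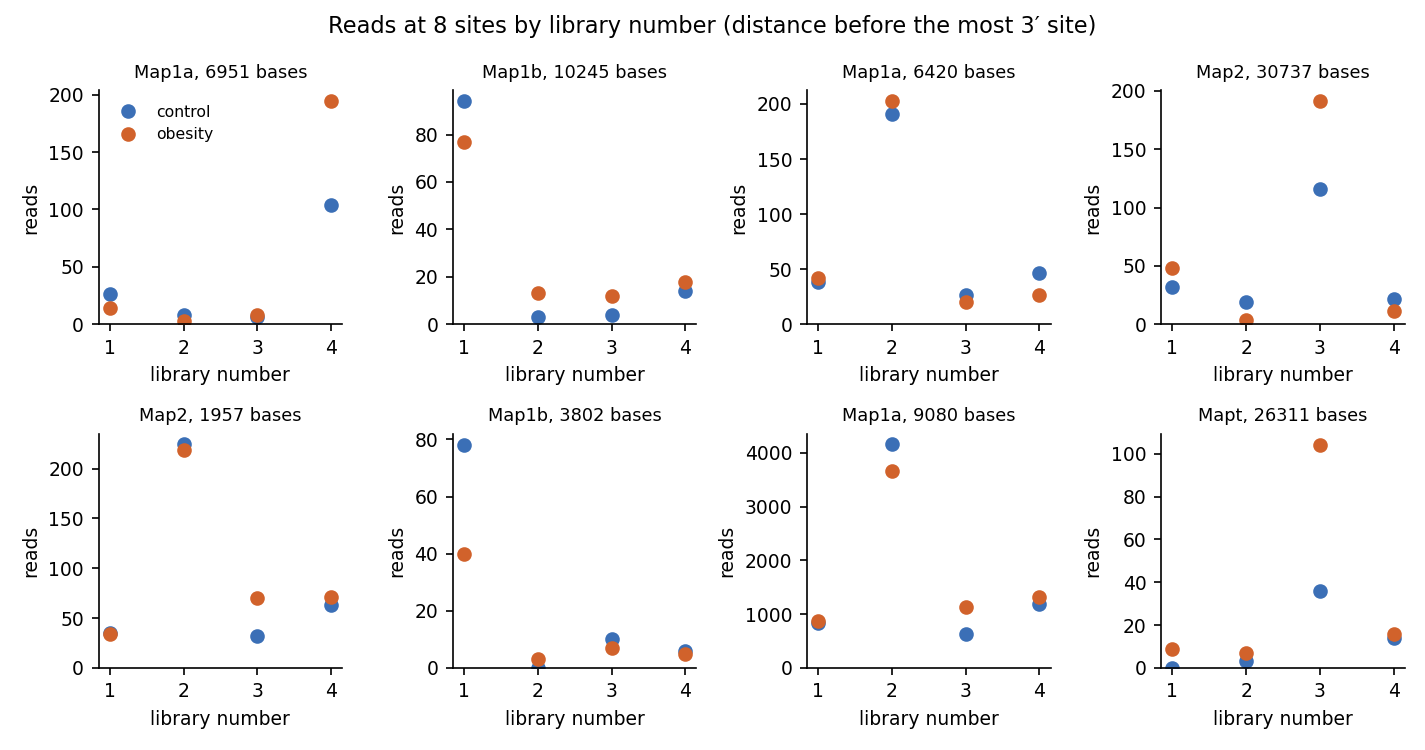
Reads at 8 MAP sites against the library number, with 1 point for control and 1 for obesity at each number. The 8 sites were picked as those where both libraries of 1 number stood farthest above the other 6. By that choice every site shown has the pattern, as at the Map1a site 9080 bases before the most 3′ site, with 4172 and 3653 reads for number 2.

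Reads on the strand opposite to a gene were few. They made up 7.56% of the reads assigned to Mapt (941 reads at 5 sites), 6.45% of those of Map4 (240 reads at 4 sites) and 0.17% of those of Map2 (40 reads at 1 site). Their assignment to the gene is uncertain. Most of the Mapt reads were at a site (92384108 to 92384109) with 92, 117, 34 and 44 reads in control and 147, 86, 150 and 45 in obesity, where the groups overlapped (log2 fold change 0.49, SE 0.44).

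The wider microtubule pathway also showed no call. The 97 listed genes were tubulins, other MAPs, end-binding proteins, tubulin-modifying enzymes, and kinases and phosphatases that act on microtubule-associated proteins. Of these 84 were measured and 0 passed an adjusted p of 0.1. With the unadjusted threshold of 0.05, 2 were higher and 1 lower (3.57%, against 5.08% of all genes), and the median log2 fold change was -0.01. Atat1, the tubulin acetyltransferase, averaged 6.5 ± 1.88 CPM in control and 16 ± 7.54 CPM in obesity (SD, n = 4, log2 fold change 1.30, SE 0.54). Nav2, a microtubule-binding guidance protein, had 143.6 ± 31.7 and 205.9 ± 40 CPM (0.52, SE 0.23). Stmn2, a neuronal protein that binds free tubulin and also counts as a neuron marker, had 298.9 ± 53.3 and 195.5 ± 65.2 CPM (-0.61, SE 0.24). The edgeR adjusted p was 0.922 for all 3, and the groups overlapped for each.

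Across the 8 libraries the MAP genes did not follow a shared course. As a description over 8 libraries that share their numbers, Pearson's r of log2 CPM was 0.54 between Map1a and Map1b. Map1b had -0.87 with Map4, -0.82 with Map6 and -0.50 with Mapt. Between those last genes r was above 0, at 0.57 for Map4 and Map6, 0.53 for Map4 and Mapt and 0.48 for Map6 and Mapt. The remaining pairs lay between -0.57 and 0.29. Among 3330 genes with a mean of at least 50 CPM, those most like Map1b were Hsp90b1 (0.979) and LOC100362999 (0.973), and those most like Map1a were Sltm (0.948) and Canx (0.939). For Map2 they were Napb (0.971) and Timm8b (0.950), and for Mapt Rpsa (0.958) and Chd2 (0.943). For Map4 they were Samd4b (0.976) and Zc3h7b (0.974), and for Map6 Ext2 (0.967) and LOC103694103 (0.955).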

How the data were processed

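WTTS-seq libraries of 8 rat hypothalami were analysed from a table of raw read counts per polyadenylation site, deposited by the authors without normalization. The submitters' processing notes name Rnor_6.0 and Bowtie2 2.2.3, and the clustering of reads into sites is not given in the sources used here. The lowest site total was 30 reads. A line without a site (the column total of control library 1) and 273 symbols that were marks and not gene names were not used. Reads carry no molecular identifiers, and internal priming at A-rich sequence was not removed.

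Counts were tested with edgeR 4.0.16 (TMM, robust quasi-likelihood F test) over all sites, all gene sums and, with diffSpliceDGE, all genes with 2 or more sites, with Benjamini-Hochberg adjustment and a threshold of 0.1. Site CPM is scaled to all reads, gene CPM to the total of gene sums. DESeq2 1.42.0 was an alternative. The most 3′ share was compared by 2-sided exact permutation over 70 arrangements. The scripts were tested on simulated data.

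Named sites are the most 3′, the most abundant and those at an unadjusted p under 0.01 by level or usage. Others were chosen after their values were seen. The genes, lists and tests were chosen with earlier results of these data known. Deviations from the group mean correlated at 0.268 to 0.382 for same-numbered libraries and at -0.2 to -0.0387 for other pairs. Such deviations sum to 0 within a group, so the values below 0 are partly built in. The numbers were taken to pair libraries. The reported fits and exact permutation tests still had no block and treated the libraries as unpaired, and blocking on the number was an alternative. What a number shares is not stated, and p-values measure the spread between libraries.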

Additional observations from a re-analysis of the deposited data

Results flagged for a closer look

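In 60 checks of 4 libraries, 3 single libraries stood apart from the rest of their group by Dixon's test, and chance gives about 3. The most abundant Map1b site (29687722) had 3711 CPM in control library 1 against 1985 to 2258 CPM in the other control libraries. The internal Map1b site at 29679094 had 63.4 CPM in obesity library 1 against 22.3 to 27.5 CPM in the other obesity libraries. The internal Map6 site at 164237414 had 0.734 CPM, a single read, in control library 3 and 0 in the other control libraries.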

How the results depend on the processing

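Under every alternative run, 0 of 6 gene sums and 0 of 6 genes in the usage test passed an adjusted p of 0.1. In edgeR's test of site level 0 MAP sites did, of 333 in most settings, 166 after filterByExpr and 246 when merged. In the usage test of single sites the Map1a site at 113263763 passed with the block. The DESeq2 Wald test called 10 sites over the table and 1 MAP site, the Map1a site at 113263763 (log2 fold change 3.39, adjusted p 0.0656), and the cause was not tested. With the replicate block the counts of MAP sites by level, gene sums, usage genes and shares were 0, while 4 of all sites, 34 of all gene sums and 1 of all usage genes passed. In the block fit the log2 fold change of that Map1a site was 3.17. Leaving out 1 library gave 0 to 1 genes past an exact permutation p of 0.05 for the most 3′ share, the 1 being Map1b without control library 1, with a difference of -0.666 percentage points.

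Values close to 0 changed sign when 1 library was left out. Gene sum log2 fold changes ranged from -0.09 to 0.11 for Map1a, -0.24 to 0.10 for Map1b and -0.29 to 0.10 for Map4. Site log2 fold changes ranged from -0.18 to 0.19 and -0.09 to 0.50 for the most abundant and most 3′ Map1a sites, -0.30 to 0.12 for the most abundant Map1b site and -0.54 to 0.07 for the most 3′ Map2 site. They ranged from -0.45 to 0.02 for the most 3′ Map4 site, -0.32 to 0.50 for that of Map6 and -0.49 to 0.17 for that of Mapt. Differences in the most 3′ share ranged, in percentage points, from -0.00888 to 0.0709 for Map1a, -0.309 to 0.383 for Map2, -2.91 to 5.62 for Map4, -1.63 to 1.4 for Map6 and -0.475 to 1.18 for Mapt. With the distal end taken from the last site holding at least 5% of reads, the differences were -0.502 for Map1a and -7.29 for Mapt, and with both strands in the total -0.112 for Map4 and -0.0301 for Mapt.

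The median MAP site had 78 reads over 8 libraries, and 133 of 333 were at 0 reads in at least 1. At the Map1a site at 113263489, with 13785 reads, the SE of the log2 fold change was 0.64. That site had 4172 and 3653 reads in the libraries numbered 2 and 636 to 1309 in the others, and the fit had no block. What set the size of that SE was not tested.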
